A study of Mus musculus with 2 samples.

Results

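The nuclei described here met a marker rule for immature proximal tubule nuclei of the developing mouse kidney. They were 475 of the 27962 nuclei kept from 2 single-nucleus RNA sequencing libraries. A nucleus was kept with 1000 to 6000 unique molecular identifiers (UMIs, each standing for 1 captured RNA molecule) in the library of late embryos (E18.5, named by embryonic day) or 1000 to 10000 in that of newborn pups (P3, postnatal day 3), and with up to 0.6% of them from mitochondrial genes. A member held at least 3 UMIs of Lrp2 plus Cubn, a UMI of at least 2 of Grid1, Stxbp5l, Cdh6 and Hnf4g, and a UMI of at most 1 of 8 genes of the maturing tubule, which were Slc27a2, Slc7a12, Cyp2j5, Slc17a3, Aadat, Aspa, Slc22a27 and Slco1a6. The rule found 356 members among 18673 kept nuclei at E18.5 (1.91%, exact 95% Clopper-Pearson interval 1.72% to 2.11%) and 119 among 9289 at P3 (1.28%, 1.06% to 1.53%). Members were chosen by the measured UMI counts of these 14 genes, and every value that sets members against other nuclei of the same library is a description. The label was checked below, and by Slc34a1 it was not met in the 58 P3 members with none of the 8 genes.

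The study combined nuclear RNA with spatial measurements to map gene expression in the developing kidney, and the nuclear RNA alone is described here. The E18.5 library came from embryos with floxed alleles and no Cre (Mycf/f;Mycnf/f) on a mixed background, and the P3 library from wild-type C57BL/6J pups. Kidneys of several animals, male and female, were pooled for each library, snap-frozen and homogenised for nuclei, and no allele or treatment was shared by both groups. With 1 library per age there was no replicate and no test. All intervals cover counting error only, and age cannot be told apart from genotype, background, library and software release. The deposited tables held 77688411 UMIs in 21600 barcodes at E18.5 and 70559806 in 12216 at P3.

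The proximal tubule is the first segment behind the glomerulus and takes back most of the filtered glucose, amino acids, phosphate, bicarbonate and protein. Protein enters through the endocytic receptors megalin (Lrp2) and cubilin (Cubn), and solutes through transporters of the brush border and of the basolateral membrane. The segment forms from the renal vesicle and the S-shaped body and then acquires its transporters and its oxidative, gluconeogenic metabolism under regulators such as Hnf4a.

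Members were set beside 4 other sets of nuclei from the same libraries. Maturing nuclei met the limit for Lrp2 plus Cubn, held a UMI of 2 or more of the 8 maturity genes, with no condition on the immature genes, and numbered 1147 at E18.5 and 1513 at P3. Early nephron nuclei, with 2 or more of 8 genes such as Wnt4 and Jag1 and up to 2 UMIs of Lrp2 plus Cubn, numbered 2328 and 1146. Loop and distal nuclei, with 2 or more of 6 genes such as Slc12a1, numbered 881 and 1073. Endothelial nuclei, with 3 or more of 8 markers, numbered 1877 and 1215. For these no limit on Lrp2 plus Cubn was set and members alone were left out, so that maturing nuclei can be among them. Such nuclei apart, they should lack tubule genes and show the level that free RNA and doublets give. Members had a median of 3608 UMIs at E18.5 and 5545 at P3, against 4003 and 6094 in maturing nuclei and 3165 and 4043 in endothelial nuclei. Levels are given as CPM, the UMIs of a gene scaled to a fixed total of 1000000 summed UMIs per set, and they are not compared between genes, which differ in length.

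The label was checked with proximal tubule genes that the rule did not use. Slc34a1, the sodium phosphate cotransporter of the brush border, stood at 562 CPM in the E18.5 members (739 UMIs, 95% Poisson interval 522 to 604) and at 153 in endothelial nuclei. At P3 it stood at 634 CPM in members (414 UMIs, 574 to 698) and at 376 in endothelial nuclei, a smaller excess. Fbp1, the gluconeogenic fructose bisphosphatase, stood at 70.4 CPM in the P3 members and at 99.3 in endothelial nuclei. No excess of Fbp1 is read at that age. RNA of both genes was thus seen in endothelial nuclei, more so in the P3 library.

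Regulators of the segment were compared in the same way. Hnf4a, a nuclear receptor of tubule maturation, stood at 114 and 71.9 CPM in members of the earlier and later age and at 15.9 and 33.7 in endothelial nuclei. Osr2, a zinc finger regulator, stood at 102 and 68.9 CPM in members and at 13.6 and 6.70 in endothelial nuclei. Over all members both genes were above the level of the endothelium in both libraries. In the 58 P3 members with no maturity gene, Hnf4a stood at 46.4 CPM (26.0 to 76.6), an interval that held the endothelial 33.7. Osr2 stood at 74.3 CPM (47.6 to 110.5) in these 58.

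**Figure D1:**
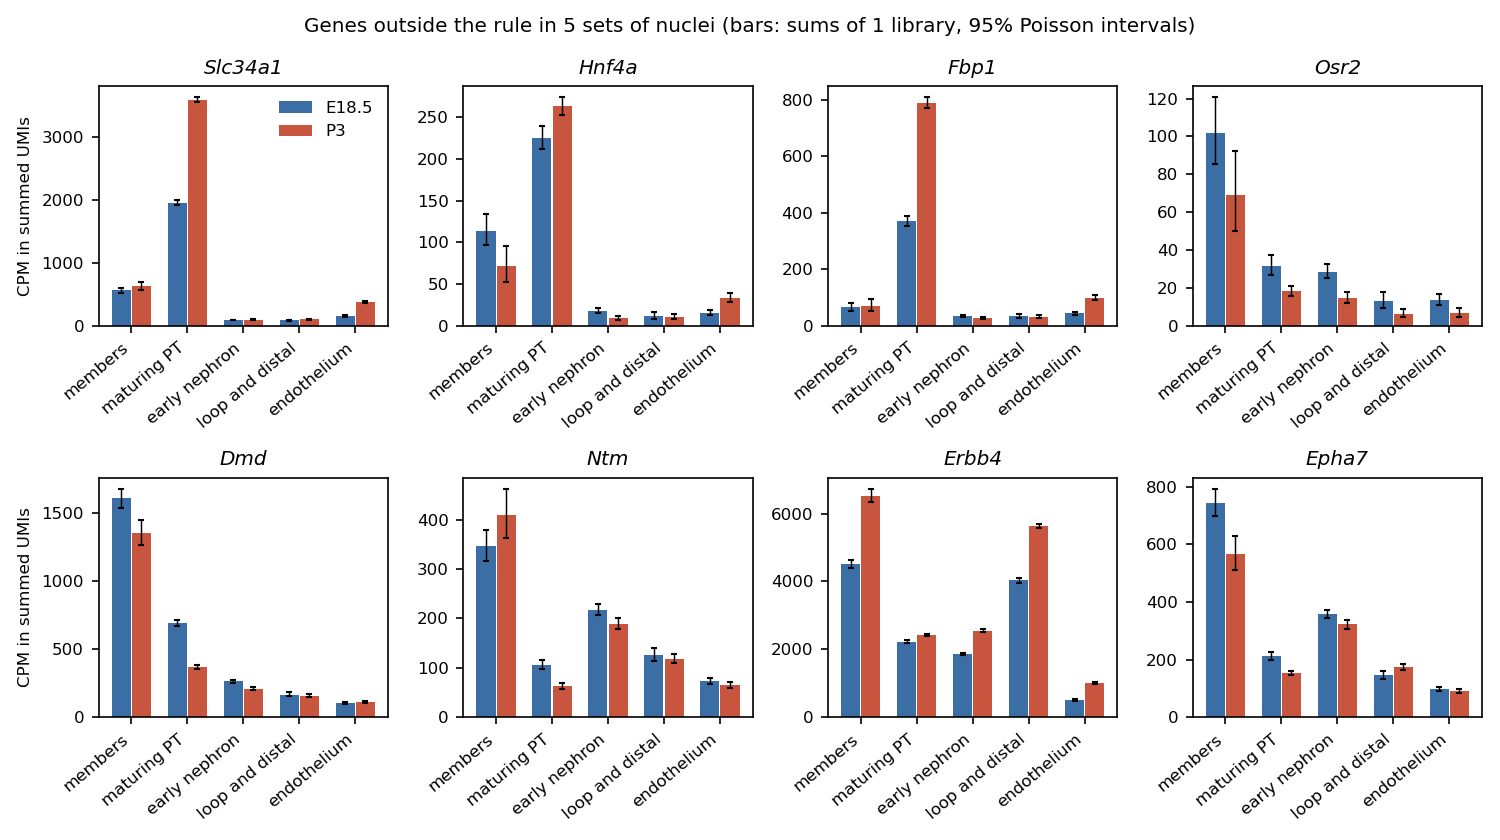
Levels of 8 genes outside the rule in CPM of summed UMIs (vertical axes, each from 0) in members, maturing proximal tubule, early nephron, loop and distal, and endothelial nuclei, with E18.5 in blue, P3 in red and 95% Poisson intervals. Slc34a1, Hnf4a and Fbp1 were highest in maturing nuclei, and Osr2, Dmd, Ntm, Erbb4 and Epha7 in members, at both ages.

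Shares of nuclei with a UMI were compared after every nucleus was thinned to 1000 UMIs. A UMI of Slc34a1 was present in 37.1% of thinned E18.5 members (exact interval 32.05% to 42.3%, unthinned 64.3%) and in 12.7% of endothelial nuclei (unthinned 26.4%). At P3 the shares were 27.7% of members (19.9% to 36.7%, unthinned 62.2%) and 17.0% of endothelial nuclei (15.0% to 19.3%, unthinned 39.6%). The excess of Slc34a1 over the endothelium was beyond counting error over all members at both ages and smaller at P3. It did not hold in every part of the P3 members. The 58 with no maturity gene had 266 CPM of Slc34a1 (213 to 329), below the endothelium's 376, and the 61 with 1 had 993. By this gene the label was thus not met in the 58. At E18.5 the levels were 353 and 702 CPM, against 153 in the endothelium. A UMI of Hnf4a was present in 12.4% of thinned E18.5 members (9.13% to 16.2%, unthinned 32.6%) and in 1.39% of endothelial nuclei (unthinned 4.74%). At P3 the shares for Hnf4a were 5.88% (2.40% to 11.7%, unthinned 29.4%) and 3.21% (2.29% to 4.36%, unthinned 9.14%), and a difference was not detectable at this depth. Dmd, the gene of dystrophin, was seen in 62.9% and 53.8% of thinned members (unthinned 86.8% and 77.3%) against 7.57% and 7.33% of endothelial nuclei (unthinned 18.6% and 25.4%).

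Measures of quality are given beside these values, and their part in the results was not tested. Scrublet, a doublet caller, marked 69 members at E18.5 (19.4%) and 21 at P3 (17.6%), against 11.9% and 10.6% of all kept nuclei, 21.5% and 20.8% of maturing nuclei and 23.8% and 21.2% of endothelial nuclei. Called doublets were kept. Xist together with a Y-linked gene, which a single nucleus should not hold, was found in 21.1% of members at E18.5 and 38.7% at P3, against 17.3% and 27.1% of kept nuclei. Of all barcode sequences, 69 occurred in both libraries, and 0 of them were members in both. Ribosomal protein genes took 4.44% of the members' UMIs at E18.5 and 1.38% at P3, against 5.36% and 1.28% of those of other nuclei.

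Nuclei just inside and outside the limits are described once. With 2 UMIs of Lrp2 plus Cubn and all other criteria met, 138 E18.5 nuclei and 96 P3 nuclei fell outside, with 209 and 129.7 CPM of Slc34a1 and 1171 and 585 of Dmd. Members with exactly 3 such UMIs, 93 and 35 in number, had 293 and 102 CPM of Slc34a1 and 1329 and 647 of Dmd. For Slc34a1 the 35 P3 nuclei thus lay below the endothelium's 376 CPM, whereas for Dmd they lay above its 113. Nuclei with 1 of the 4 immature genes, 158 and 165 in number, had 517 and 128 CPM of Dmd against 1298 and 741 in members with exactly 2. Nuclei with 2 of the 8 maturity genes, 180 and 83 in number, had 1199 and 2303 CPM of Slc34a1 against 702 and 993 in members with 1.

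Some members at P3 also held genes of the loop of Henle and distal tubule. Slc12a1, the sodium potassium chloride cotransporter of the thick limb, stood at 100.3 CPM in the E18.5 members and at 764 in the P3 members, where 89.0% of its 499 UMIs lay in 10 nuclei. Of the 6 genes that define loop and distal nuclei, 2 or more were present in 8 of 356 and in 20 of 119 members. The 10 markers of these segments, none of them at 0, summed to 242 CPM at E18.5 and 1139 at P3, with Slc12a1 the most abundant, and to 221 and 393 CPM without those nuclei. The values below include them unless said otherwise. Loop and distal RNA moved with age, and its part in the P3 values was not tested.

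Members were first compared with all other kept nuclei of the library. A gene was counted as higher or lower when its CPM, with 10 added to both sides, differed at least 2-fold, among genes with 20 CPM or more on either side and without the 14 genes of the rule. At E18.5, 298 of 9187 genes were higher (3.24%) and 341 lower (3.71%), with a median log2 ratio of -0.01 over all genes. At P3, 88 of 8599 were higher (1.02%) and 243 lower (2.83%), with a median of 0.03. Of the higher genes, 64 were counted at both ages, which is 21.5% of those at E18.5 and 72.7% of those at P3. These counts depended on the upper limit of UMIs. With 6000 UMIs as the limit at both ages, P3 held 266 higher and 438 lower genes, and with no upper limit the counts were 149 higher and 56 lower genes at E18.5 and 38 higher and 128 lower genes at P3, so that no order of the ages is read from them.

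Several of the genes furthest above other nuclei were the same in both libraries. Dmd, at chrX:82948870-85206141 in mm10, stood at 1608 against 209.6 CPM at E18.5 (7.67-fold, 7.32 to 8.03) and at 1356 against 214 at P3 (6.34-fold, 5.91 to 6.79). Galntl6, of the family that starts O-linked glycans, stood at 666 against 113 CPM at E18.5 (5.87-fold, 5.47 to 6.30) and at 242 against 60.2 at P3 (4.02-fold, 3.40 to 4.72). Adamts16, a secreted metalloprotease, stood at 662 against 147 CPM at E18.5 (4.49-fold) and at 413 against 114 at P3 (3.64-fold). Each of these 3 genes was among the 12 furthest above other nuclei at both ages.

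Other leading genes follow with their ratios at each age. Gpc5, a glypican of the cell surface, was 5.32-fold higher at E18.5 (3576 against 672 CPM) and 2.60-fold at P3, Unc5cl 8.27-fold and 4.07-fold, and Slc25a21, a mitochondrial oxodicarboxylate carrier, 5.07-fold and 1.59-fold. The leading genes at P3 also held Ppp2r2b, a regulatory subunit of protein phosphatase 2A, at 5.44-fold (274 against 50.4 CPM), Cftr, a chloride channel, at 3.83-fold, Lama1, a laminin chain of early basement membranes, at 3.41-fold and Slit3, a ligand of Robo receptors, at 3.14-fold. The ratios of these 4 genes at E18.5 were 4.90, 4.10, 3.69 and 2.57. Against maturing nuclei at E18.5 and P3, Gpc5 stood at 0.985 and 1.14, Unc5cl at 1.25 and 1.06 and Slc25a21 at 0.720 and 0.456. These 3 genes thus did not set members apart from maturing nuclei by 2-fold above. In the same comparison Ppp2r2b stood at 2.42 and 7.02, Cftr at 1.39 and 1.48, Lama1 at 2.59 and 2.53 and Slit3 at 1.81 and 3.24.

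The other nuclei held proximal tubule nuclei too. Maturing nuclei made up 6.14% of the kept nuclei at E18.5 and 16.3% at P3, and no order of the ages is read from the counts that follow. Among 16 transcription regulators, 6 of 15 measured were higher at E18.5, among them Hnf4a, Osr2, Maf and Esrrg, with a median log2 ratio of 0.78, and 2 of 16 at P3, among them Osr2, with a median of 0.09. None was lower. Of the brush border genes, 7 of 16 and 2 of 14 were higher (medians 0.73 and 0.30), in both libraries Eps8, which caps and bundles actin, at 3.42 and 2.19 times the other nuclei, and Myo7b, a myosin of microvillus tips, at 6.11 and 2.76 times. Of the solute transporters 7 of 25 were higher at E18.5, and at P3 0 of 27 were higher and 3 lower. Of the partners of endocytosis, Dab2, an adaptor of megalin, and Lrpap1, its chaperone, were higher at E18.5 of 7 measured, and 0 of 6 at P3.

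Markers of other cell types were below the rest of the kidney in sum. Podocyte genes, led by Wt1, summed to 406 against 1062 CPM in other nuclei at E18.5 and to 501 against 780.5 at P3, and endothelial genes, led by Emcn, to 279.6 against 764 and 379.6 against 917. Stromal genes, led by Col3a1 at E18.5 and Meis1 at P3, summed to 822 against 1729.6 and 958 against 1649 CPM, and collecting system genes, led by Hoxb7 and Gata3, to 125 against 267 and 88.8 against 177. Leukocyte genes, led by Csf1r and Mrc1, summed to 56.2 against 73.5 and 98.0 against 102 CPM with 3 of 8 at 0 in the P3 members, and erythroid genes, led by Hbb-bs, to 692 against 891 and 106 against 157. The sums of these 6 lists were thus lower in members than in other nuclei at both ages, with little between them for leukocytes at P3. Loop and distal markers summed to 242 against 674 CPM at E18.5. At P3 they summed to 1139 against 1238 CPM (0.920, 0.855 to 0.989), with 0 of 9 genes lower. Of nephron progenitor genes, Eya1, Itga8, Gdnf and Spock2 were lower of 8 measured at E18.5 and 0 of 7 at P3.

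Members were next compared with maturing nuclei. At E18.5, 140 of 8940 genes were higher in members (1.57%) and 302 lower (3.38%), and at P3 536 of 8647 were higher (6.2%) and 593 lower (6.86%). The median log2 ratio over all genes was 0.11 and 0.15. When sums were scaled by the median of the gene ratios, a log2 shift of 0.13 and 0.18, the split became 96 higher and 364 lower at E18.5 and 369 and 771 at P3. Of the lower genes, 237 were shared by both ages, 78.5% of those at E18.5 and 40.0% of those at P3. Of the higher genes, 94 were shared, 67.1% and 17.5%, and 0 genes were higher at one age and lower at the other. When members were chosen after thinning each nucleus to 1000 UMIs, 81 and 57 nuclei met the rule, of which 43 and 44 were maturing nuclei at full depth. Maturing nuclei were then chosen after thinning too, and differ from those defined above. That choice put Slc4a4 and Slc5a12 above the maturing nuclei so chosen at P3. Of the other genes named here that crossed to the other side, which were Amn, Cldn10, Eya1, Frmpd4, Mrc1, Pax2, Slc5a2, Tenm2 and Top2a, each had a counting interval that included a ratio of 1. Without called doublets the split was 300 higher and 361 lower at E18.5 and 883 and 727 at P3, with more genes higher than lower at P3. More were higher at P3 also with 6000 UMIs as the upper limit (671 higher and 641 lower) and in members with none of the maturity genes (847 higher and 826 lower). With no upper UMI limit the split was 32 and 245 at E18.5 and 194 and 510 at P3, and with members chosen after thinning it was 341 higher and 305 lower at E18.5 and 132 higher and 171 lower at P3. Which direction held more genes is therefore not read from these counts.

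Most solute transporters were below the maturing level. Of 31 measured, 18 were lower at E18.5 and 27 at P3, and 0 were higher, with median log2 ratios of -1.18 and -2.04. Their summed level was 2610.2 against 6832 CPM in maturing nuclei at E18.5 and 2953 against 12540.2 at P3. Slc34a1 stood at 0.287 (0.266 to 0.310) and 0.177 (0.160 to 0.195) of the maturing level. Slc5a8, which carries lactate and other monocarboxylates with sodium, stood at 19.8 against 227 CPM and at 10.7 against 180.3. Its endothelial levels were 16.3 and 23.5, so that members were near or below them. Slc6a18, a neutral amino acid transporter, stood at 0.143 and 0.169, and Slc3a1, the heavy subunit of the cystine transporter, at 0.181 and 0.153. Slc4a4, the basolateral bicarbonate transporter, stood at 317 against 809 CPM and at 476 against 1495, with 111 and 259 in the endothelium.

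Other transporters were closer to the maturing level, some of them at E18.5 alone. Slc5a2, the main glucose transporter of the early segment, stood at 25.1 against 26.4 CPM at E18.5 (ratio 0.948, 0.625 to 1.40) and at 44.4 against 258 at P3 (ratio 0.172, 0.115 to 0.248), where the endothelium had 34.4. Slc5a12, the low-affinity lactate transporter of the convoluted part, stood at 209.7 against 344 CPM and at 300 against 1269. Slc2a1, the widely used glucose transporter, stood at 0.882 and 0.887 of the maturing level at the earlier and later age.

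Gluconeogenic and amino acid enzymes were lower still in their median. Of 11 and 12 measured, 7 and 9 were lower and 0 higher, with medians of -1.52 and -2.53. Pck1, the rate-limiting enzyme of gluconeogenesis, stood at 34.95 against 108 CPM at E18.5 and 101 against 893 at P3, and Ass1, of arginine synthesis, at 43.3 against 150.2 and 47.4 against 496. At P3 both were below their endothelial levels of 116 and 66.8 CPM. Agxt2, a mitochondrial aminotransferase, stood at 77.5 against 241 and 138 against 625 CPM, above its endothelial levels of 12.8 and 59.6. Glud1, glutamate dehydrogenase, stood at 0.784 and 0.574 of the maturing level.

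Brush border, fatty acid and endocytosis genes were also counted. Of 18 and 19 brush border genes, 7 and 8 were lower and 0 higher, with medians of -0.61 and -0.90. Dpp4, a peptidase of the microvillus membrane, stood at 919 against 961 CPM at E18.5 (ratio 0.956, 0.896 to 1.02) and at 560.2 against 808 at P3 (0.694, 0.623 to 0.771), whereas the peptidase Mep1b stood at 0.145 and 0.102. Of 16 and 17 genes of fatty acid oxidation, 4 and 6 were lower and 0 higher, with medians of -0.31 and -0.72. Of the partners of endocytosis, Dab2 was lower at both ages, at 0.476 and 0.216, and Amn, the anchor of cubilin, at P3 (0.362), of 9 and 8 measured, with medians of -0.07 and -0.34.

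Glycolysis genes were near the maturing level. None of 12 was counted in either direction at E18.5 (median -0.09, sums 1107 against 1143 CPM). At P3 1 of 11 was lower, the enolase Eno1 at 0.327 (median -0.27, sums 473 against 607 CPM).

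**Figure D2:**
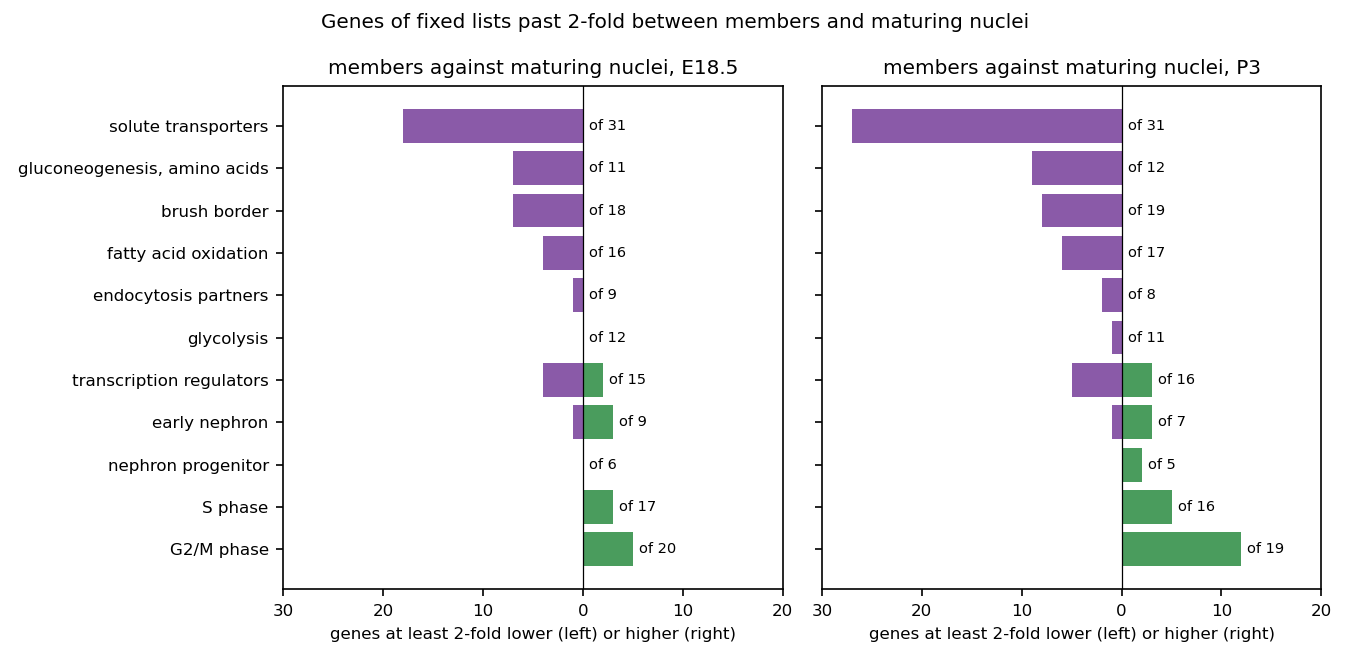
Number of genes of 11 fixed lists at least 2-fold lower (purple, to the left) or higher (green, to the right) in members than in maturing nuclei at E18.5 and P3, with the number measured beside each bar. Solute transporters had 18 and 27 lower genes of 31 and none higher, and G2/M genes 5 and 12 higher and none lower.

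Transcription regulators went both ways, with 2 higher and 4 lower of 15 at E18.5 and 3 higher and 5 lower of 16 at P3 (medians 0.01 and -0.39). Lhx1, a homeobox gene of the renal vesicle, stood at 125 against 45.9 CPM at E18.5 (2.73-fold, 2.21 to 3.37) and at 145 against 58.2 at P3 (2.50-fold, 1.99 to 3.11). Osr2 stood at 102 against 31.7 (3.21-fold, 2.52 to 4.09) and at 68.9 against 18.1 (3.80-fold, 2.67 to 5.31). Of the list, Lhx1 and Osr2 were counted as higher at both ages. Pax2, of the nephron lineage, stood at 1.501 and 2.12 and was counted as higher at P3. Nr1h4, the bile acid receptor, stood at 0.336 and 0.221, Ppara, a regulator of fatty acid oxidation, at 0.321 and 0.227 and Thrb, a thyroid hormone receptor, at 0.359 and 0.223, all lower at both ages. Hnf4a stood at 0.506 (0.424 to 0.601) and 0.273 (0.2002 to 0.365), and was counted at P3.

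Some genes of the early nephron were higher in members. Jag1, the Notch ligand of the S-shaped body, stood at 176 against 70.2 CPM at E18.5 (2.51-fold, 2.11 to 2.98) and at 179 against 64.9 at P3 (2.76-fold, 2.24 to 3.37). Of 9 and 7 measured genes of this list, 3 were higher at each age, with Jag1 the Notch target Heyl and the Notch modifier Lfng at E18.5, and Wnt4, the inducer of epithelial conversion, and the cadherin Cdh4 at P3. The medians were 0.64 and 0.57. Papss2, which makes the sulfate donor, was lower at both, at 0.259 and 0.323. Of nephron progenitor genes 0 of 6 passed 2-fold at E18.5, and Eya1 and Itga8 were higher of 5 at P3, at 2.92-fold and 2.76-fold. Eya1 was no longer above the maturing level in members with 3 or more of the 4 immature genes, nor was Mrc1, a leukocyte gene, in members with none of the 8 maturity genes, and both counting intervals included a ratio of 1. At P3 markers of other types were also above maturing nuclei. The podocyte list held 1 higher gene of 5 (Wt1, 312 against 101 CPM) with a median of 0.04, the stromal list 1 of 6 (Meis1, 551 against 226 CPM) with 0.31 and the leukocyte list 1 of 2 (Mrc1, 45.9 against 15.1 CPM) with 0.81. Of endothelial genes 0 of 7 passed 2-fold, with a median of 0.53 and a sum 1.64-fold higher (1.44 to 1.88). The sums of the podocyte, stromal and leukocyte lists were 1.55-fold, 1.77-fold and 1.92-fold. Of loop and distal genes 4 of 8 were higher (2.89-fold in sum), and 0 of 2 collecting system and 0 of 2 erythroid genes were, with sums at 1.01 and 0.916 of the maturing level. At E18.5 0 of the measured markers of other types was higher and the podocyte gene Ptpro was lower. The part of nuclei or RNA of other types in these values was not tested.

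The genes furthest above maturing nuclei are given with what each is known for. Ntm, an adhesion molecule of neurons, stood at 347 against 106 CPM at E18.5 (3.27-fold, 2.87 to 3.72) and at 410.2 against 63.2 at P3 (6.49-fold, 5.598 to 7.52). Hs3st3b1, which modifies heparan sulfate, was 4.63-fold and 5.75-fold higher, Epha7, an ephrin receptor, 3.50-fold and 3.69-fold, Slit2, a ligand of Robo receptors, 2.80-fold and 3.29-fold, and Frmpd4, a scaffold protein, 2.73-fold and 4.58-fold. Inpp4b, a phosphoinositide phosphatase, was 3.78-fold and 2.99-fold higher, but endothelial nuclei held 478 and 1012 CPM against 364 and 283 in members. Aldh1a2, of retinoic acid synthesis, was 2.44-fold and 4.69-fold higher. Tenm2, a teneurin, was 1.53-fold and 5.05-fold higher, with 712 CPM in loop and distal nuclei at P3 against 312 in members. Against all other nuclei, Slit2 stood at 1.15 at both ages, Frmpd4 at 1.58 and 1.79 and Hs3st3b1 at 1.59 and 2.14. Ntm stood at 2.32 and 3.09 and Epha7 at 4.07 and 3.07. After thinning, Slit2 was seen in 38.8% and 48.7% of members and in 42.8% and 52.4% of early nephron nuclei.

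The genes furthest below maturing nuclei at E18.5 held Slc5a8 at 0.0870 of the maturing level, Acmsd, of tryptophan breakdown, at 0.0978, Slc22a29 at 0.108 and Slc22a30 at 0.122, both of the organic ion transporter family, and Them7 at 0.113. At P3 they held Them7 at 0.0375, Slc17a1, a phosphate and urate transporter, at 0.0753, Miox, the oxygenase of inositol, at 0.0757, glucose-6-phosphatase, G6pc, at 0.0864 and Fbp1 at 0.0890. Hnf4aos, antisense to Hnf4a, stood at 0.158 and 0.0827, and it cannot be told apart from Hnf4a unless reads were counted by strand, which is not given in the sources used here. For Miox at P3 the members' 24.5 CPM lay below the endothelium's 48.2.

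Some genes known from neuronal contacts were above maturing nuclei. Erbb4, a receptor of neuregulins, stood at 4506 against 2229.6 CPM at E18.5 (2.02-fold, 1.96 to 2.09) and at 6527 against 2415 at P3 (2.70-fold, 2.61 to 2.79), and at 4035 and 5631 in loop and distal nuclei. Nlgn1, a neuroligin, was 2.75-fold and 2.20-fold higher, with 821 and 1704 CPM in the endothelium against 337 and 188 in members. Dmd was 2.33-fold and 3.67-fold higher. Cbln1, a secreted cerebellin that binds neurexins, had 0 UMIs in members at either age, which allows up to 2.28 and 4.59 CPM (3 counts).

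The remaining lists held few genes past 2-fold. Of 13 and 12 adhesion and junction genes (medians 0.05 and -0.16), Cldn10, a claudin of the paracellular path, was lower at both ages at 0.392 and 0.194, and at P3 Cldn2 was lower and the cadherins Cdh2, Cdh3 and Cdh11 higher. Of 12 and 10 fetal growth genes (medians 0.16 and 0.15), Hmga2, a chromatin protein of fetal tissue, was higher at both, at 334 against 156 CPM and 344 against 93.3. Of 10 and 7 genes linked to injured or progenitor-like tubule (medians 0.16 and 0.41) 0 passed 2-fold, and Havcr1, the kidney injury molecule, had 0 UMIs at both ages, with the same limits as Cbln1.

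Genes higher in members at both ages were longer than the genes tested. The 94 genes higher than in maturing nuclei at both ages had a median length of 136 kb, and 59.6% were over 100 kb, against 39.6 kb and 21.6% of the genes tested in that comparison at both ages. The 237 lower than in maturing nuclei at both ages had a median of 39.3 kb. The 64 higher than in other nuclei at both ages had a median of 118 kb, against 40.6 kb of the genes tested there at both. The part of length in these counts was not tested.

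Promoters of a few genes below the maturing level held a motif of HNF4, the family of the regulator Hnf4a. The motif searched was CAAAGTCCA, on both strands of the 250 bases before the gene start in RefSeq (build GRCm38.p6). It occurred before 0.451% of all 27025 genes in the promoter table. Of the 237 genes lower at both ages 181 matched the table, too few for a comparison of shares, and 4 held it. The windows of Slc3a1 (chr17:85028278-85028346, plus strand) and Agxt2 (chr15:10358482-10358550, plus strand), both described above, are printed with 30 bases on either side of the motif in capitals.
Slc3a1, HNF4: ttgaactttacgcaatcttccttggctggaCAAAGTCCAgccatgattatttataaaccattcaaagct
Agxt2, HNF4: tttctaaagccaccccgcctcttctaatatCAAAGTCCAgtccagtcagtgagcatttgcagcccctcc

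Both genes were below maturing nuclei at both ages. Slc3a1 stood at 36.5 against 202 CPM at E18.5 and 30.6 against 199.8 at P3, and Agxt2 at the levels given with the amino acid enzymes. A match describes the sequence and says nothing of binding.

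Levels changed in steps along the number of maturity genes. All nuclei with at least 3 UMIs of Lrp2 plus Cubn, members and others, were ordered by how many of the 8 genes had a UMI, which also depends on depth. Slc34a1 stood at 327, 777, 1422, 1991, 2357, 2536 and 1846 CPM from 0 to 6 or more genes at E18.5, and at 195, 784, 2581, 3880.2, 4168, 4268 and 3051 at P3. Hnf4a stood at 64.2 and 17.4 CPM at 0 genes and at 272 and 330.3 at 6 or more. Slc5a12 was highest at 3 genes at E18.5 (559.8 CPM) and at 4 at P3 (1964 CPM), and stood at 50.1 and 593 at 6 or more. At 0 genes at P3, Slc34a1 and Hnf4a were both below their endothelial levels given above. Loop and distal markers summed to 467 CPM at 0 genes and 273 at 6 or more at E18.5. At P3 these sums were 2201 and 347. Nephron progenitor genes summed to 819 and 308 at E18.5 and to 1034 and 247 at P3. The part of nuclei or RNA of other types in this order was not tested.

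Other genes were lower at the end of the same order than at its start, some of them after a peak. Lhx1 stood at 126, 83.7, 54.3, 43.4 and 42.4 CPM from 0 to 4 genes at E18.5 and at 82.2, 104, 93.0, 74.9 and 61.5 at P3. Epha7 went from 538 at 0 genes to 104 CPM at 6 or more at E18.5 and from 269.5 to 123 at P3. Dmd went from 970.1 to 521 and from 424 to 323, and Osr2 from 86.2 to 15.0 and from 26.1 to 11.0. The highest level lay at 0 genes at E18.5 for Lhx1, Epha7 and Osr2 and at 1 for Dmd, and at P3 at 1 gene for Lhx1 and Dmd, at 2 for Epha7 and at 3 for Osr2. Nuclei with 6 or more maturity genes had lower levels of these 4 genes than nuclei with 0. The sums of loop and distal markers and of nephron progenitor genes, given above, were also lower there at both ages. Their part in the levels of these 4 genes was not tested.

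**Figure D3:**
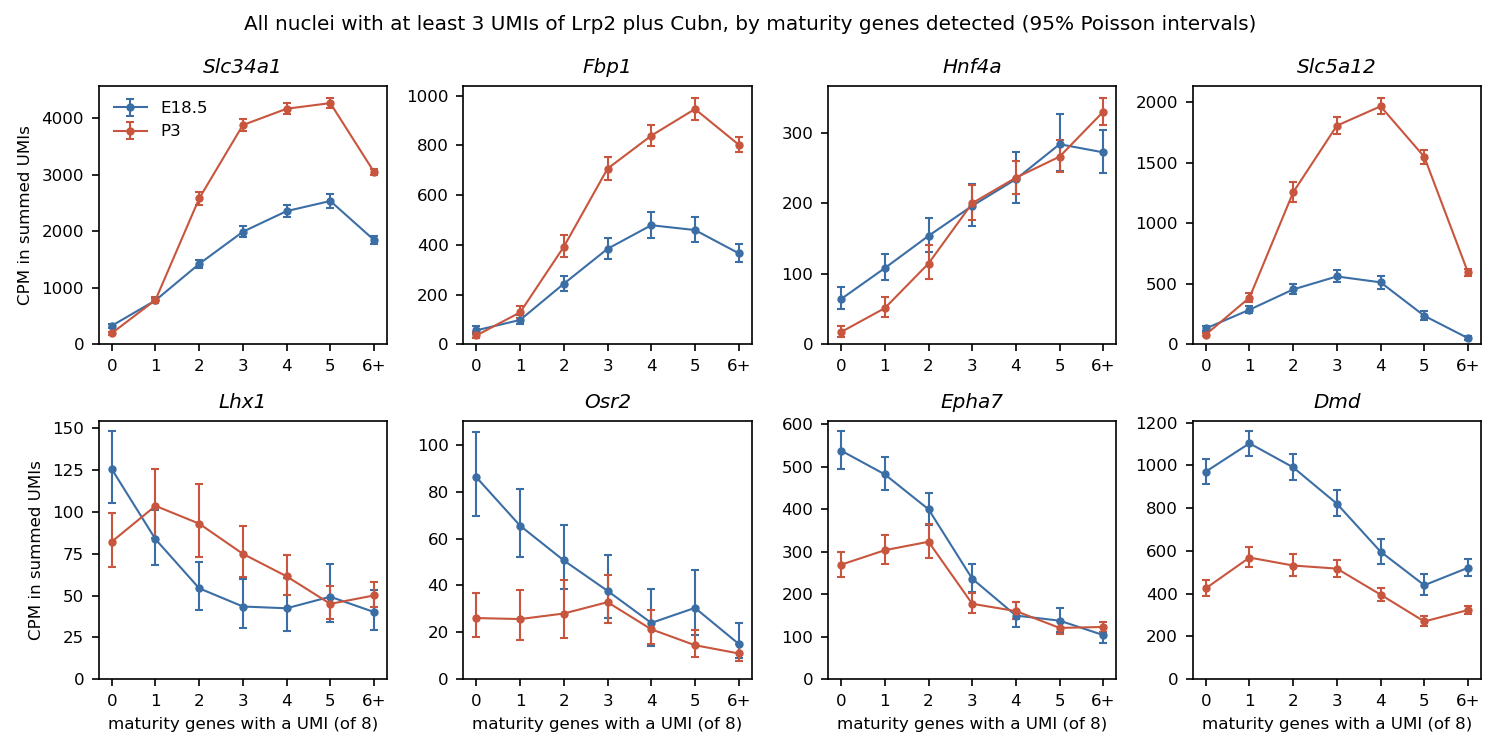
CPM of 8 genes (vertical axes, each from 0) in all nuclei with at least 3 UMIs of Lrp2 plus Cubn, ordered on the horizontal axis by how many of the 8 maturity genes had a UMI, with E18.5 in blue, P3 in red and 95% Poisson intervals. At 0 maturity genes the upper 4 genes were below, and the lower 4 above, their level at 4.

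Members held more RNA of the cell cycle than maturing nuclei did. Of the G2/M genes, 5 of 20 at E18.5 and 12 of 19 at P3 were higher and 0 lower (medians 0.84 and 1.21), and their sum was 1669 against 853 CPM (1.96-fold, 1.86 to 2.06) and 1495 against 509 (2.94-fold, 2.74 to 3.15). Top2a, the topoisomerase of dividing cells, stood at 264 against 107 CPM and at 259 against 65.4. Of the S phase genes, 3 of 17 and 5 of 16 were higher (medians 0.56 and 0.83), with sums of 1187 against 675 CPM and 1082 against 532. When members and maturing nuclei were both chosen after thinning to 1000 UMIs, the median of the G2/M genes at P3 was -0.06, on the other side of 0. That of the S phase genes was 0.34. At E18.5 the medians were then 0.64 and 0.64.

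Per nucleus the order was the same after thinning to 1000 UMIs. Of members, 20.5% at E18.5 (16.4% to 25.1%) and 19.3% at P3 (12.7% to 27.6%) held 3 or more G2/M UMIs, against 8.98% and 4.36% of maturing nuclei. Unthinned, the shares were 56.2% and 49.6% of members and 41.6% and 23.0% of maturing nuclei. Early nephron nuclei had 26.5% and 22.3% and endothelial nuclei 23.7% and 15.8% after thinning. For G2/M the members' interval covered the endothelial share but not that of early nephron nuclei at E18.5, and covered both at P3. For S phase the shares were 15.2% and 12.6% of thinned members against 4.36% and 3.83% of maturing nuclei (unthinned 56.7% and 54.6% against 38.7% and 39.7%). The part of free RNA in these shares was not tested.

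**Figure D4:**
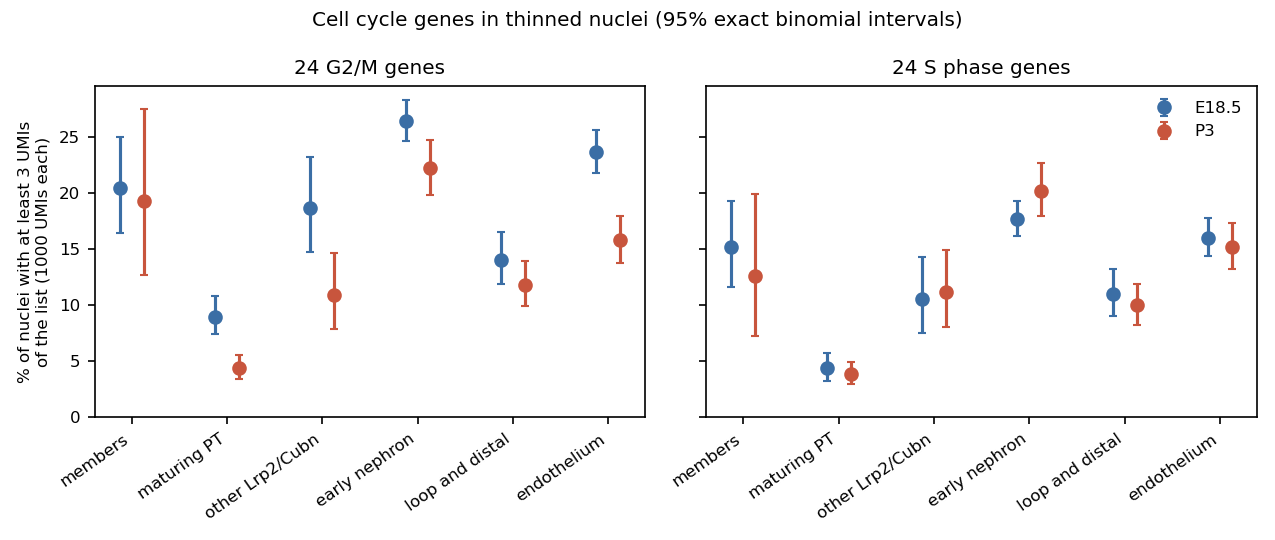
Percentage of nuclei with at least 3 UMIs of 24 G2/M genes (left) or 24 S phase genes (right) after each nucleus was thinned to 1000 UMIs, in 6 sets of nuclei at E18.5 (blue) and P3 (red), with exact binomial 95% intervals. The set named other Lrp2/Cubn holds nuclei with at least 3 UMIs of the 2 genes that were neither members nor maturing, and maturing nuclei had the lowest share in both panels.

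Against all other nuclei the sum of G2/M genes was 1.04-fold (0.996 to 1.08) at E18.5 and 1.48-fold (1.38 to 1.57) at P3, and 0 genes of either cycle list passed 2-fold. Within members, those with no maturity gene had 1941 CPM of G2/M genes at E18.5 and 1795 at P3, and those with 1 had 1487 and 1202. Loop and distal markers moved with this split, at 304 and 199.5 CPM at E18.5 and 1866 and 427 at P3. The P3 members with 2 or more loop and distal genes had 2025 CPM of G2/M genes, and the others 1361. The part of nuclei or RNA of those segments in the split was not tested.

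Members varied among themselves. Erbb4 was found in 338 of 356 members at E18.5 and 116 of 119 at P3, Dmd in 309 and 92, Dab2 in 304 and 103 and Dpp4 in 321 and 91. Epha7 was found in 255 and 77 members, and 13.2% of its 980 UMIs at E18.5 and 41.5% of its 371 at P3 lay in 10 nuclei, which are a smaller part of 356 members than of 119, so that these shares are not compared between ages. At P3 up to 33 UMIs of Epha7 lay in 1 nucleus. For Dmd the 10 highest nuclei held 11.7% and 33.7% of the UMIs, and for Slc34a1 17.1% and 46.4%. Of the members with a UMI of Epha7, 60.8% at E18.5 and 67.5% at P3 also had one of Slc34a1, and of those without, 73.3% and 52.4%.

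Members with more of the 4 immature genes had more Dmd and Epha7, which the rule did not use. At E18.5, members with exactly 2, 3 and 4 of them (147, 133 and 76 nuclei) had 1298, 1794 and 1849 CPM of Dmd and 547, 831 and 949.7 of Epha7. At P3 (54, 38 and 27 nuclei) the levels were 741, 1334 and 2255 for Dmd and 267, 551 and 1014 for Epha7. Over the same 3 steps at P3, loop and distal markers stood at 1709, 1226 and 238 CPM and nephron progenitor genes at 1168, 530.4 and 354. At E18.5 the loop and distal sums were 199, 223 and 347 CPM, and the part of other nuclei in the steps was not tested. Fbp1 went the other way, at 108, 42.9 and 29.99 CPM at E18.5. Deeper nuclei show more genes, and the median depth of the 3 steps was 3566, 3595 and 3723 UMIs at E18.5 and 5097, 4979 and 7299 at P3.

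The number of Lrp2 and Cubn UMIs split the P3 members. Those with 5 or more (65 nuclei) had 1014 CPM of Slc34a1 and 1717 of Dmd, and those with 3 or 4 (54 nuclei) had 167 and 914. Loop and distal markers summed to 855 and 1486 CPM at P3 and, in the other order, to 271 and 204 at E18.5. At E18.5 the same split (194 and 162 nuclei) gave 716 and 367 CPM of Slc34a1 and 1695 and 1498 of Dmd.

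The last comparison set the P3 members beside those of E18.5. With no replicate, 232 of 9021 genes were higher at P3 (2.57%) and 520 lower (5.76%), with a median log2 ratio of -0.05. For the leading genes named, the ratios of all other nuclei between the same libraries are given beside those of members. The counts moved with the processing, to 407 higher and 944 lower with 1 CPM added, 433 higher and 858 lower in members with none of the maturity genes, 142 higher and 408 lower with no upper UMI limit and 610 higher and 1356 lower with members chosen after thinning. Slc12a1 was 7.61-fold higher in members (6.27 to 9.30) and 2.22-fold in other nuclei, and 2.88-fold in members without the nuclei with 2 or more loop and distal genes. Slc12a3, the distal sodium chloride cotransporter, was 4.87-fold higher, 1.78-fold in other nuclei and 1.70-fold in members without those nuclei. Those nuclei were chosen for UMIs of such genes, so that lower ratios without them follow in part from the choice. Among members with 5 or more UMIs of Lrp2 plus Cubn, the log2 ratio of Slc12a3 was -0.45, with a counting interval of -3.33 to 1.07, and showed no direction.

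Other genes higher at P3 changed less without those nuclei. Lsamp and Negr1, adhesion molecules of neurons, were 4.68-fold and 3.96-fold higher in members, 4.57-fold and 3.30-fold without the loop and distal nuclei and 1.09-fold and 1.67-fold in other nuclei. Cdh4 was 3.64-fold higher (429 against 118 CPM), 4.05-fold without those nuclei and 1.70-fold in other nuclei. Cadps2, of vesicle release, was 3.79-fold higher and 1.47-fold in other nuclei. Lars2, a mitochondrial tRNA ligase, was higher in members and in other nuclei alike, at 3.37-fold and 3.14-fold. Set against other nuclei of the same age, members held less Lsamp and Negr1 at both ages. The ratios at E18.5 and P3 were 0.195 and 0.835 for Lsamp and 0.240 and 0.569 for Negr1. They were 0.614 and 1.32 for Cdh4 and 0.517 and 1.34 for Cadps2.

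The 12 genes furthest lower at P3 in members were also lower in other nuclei. Hbb-bs, a beta globin, stood at 0.127 of the E18.5 level in members and 0.134 in other nuclei, and Hba-a1, an alpha globin, at 0.133 and 0.231. Both have near-identical copies that make their counts uncertain. The ribosomal genes Rplp1 and Rps7 stood at 0.172 and 0.187 in members and 0.182 and 0.199 in others. Cdkn1c, an imprinted inhibitor of the cell cycle, stood at 349.6 CPM at E18.5 and 61.2 at P3 (0.175, 0.123 to 0.242) and at 0.287 in other nuclei. Adamts1, a secreted metalloprotease, stood at 0.203 and 0.320, and Scd2, a fatty acid desaturase, at 0.183 and 0.239.

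**Figure D5:**
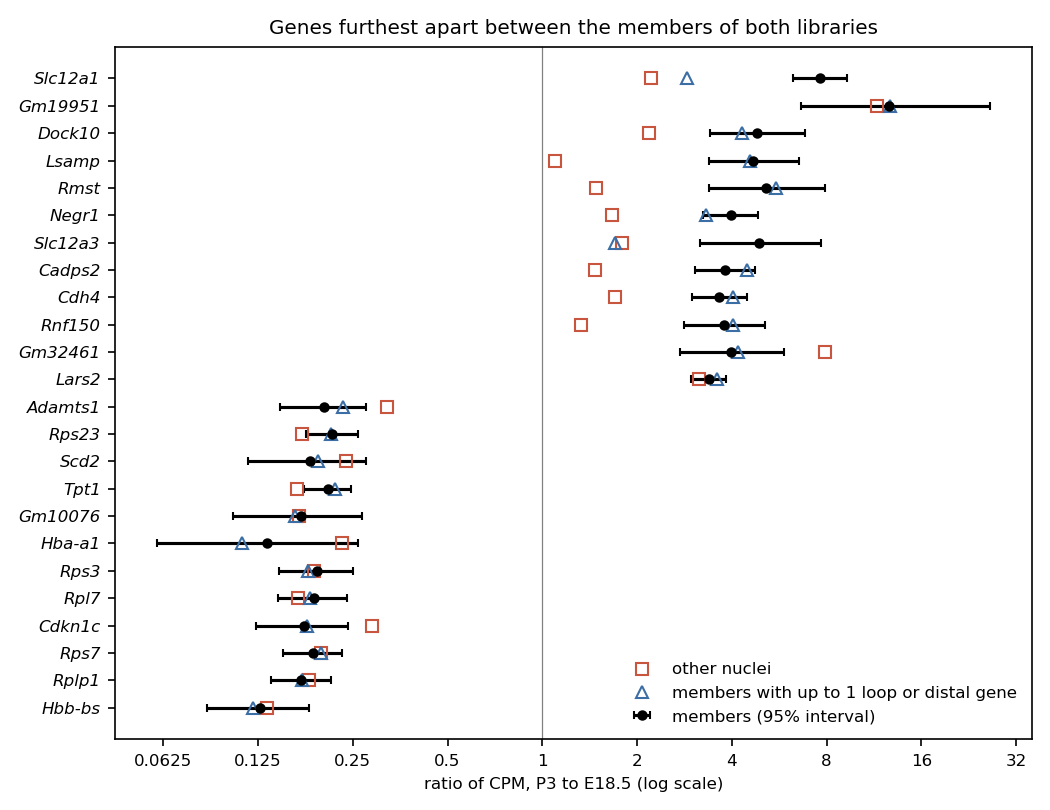
Ratio of CPM at P3 to E18.5 (log scale) for the 12 genes furthest higher and the 12 furthest lower at P3 in members, with 10 CPM added for the choice of genes, in members (black points with 95% intervals), in members with up to 1 loop or distal gene (blue triangles) and in other nuclei (red squares). The 12 lower genes were also lower in other nuclei, and Slc12a1 and Slc12a3 moved furthest toward 1 in members with up to 1 loop or distal gene.

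Most functional lists held few genes apart between the ages in members. Of 25 solute transporters, Slc9a3, the sodium proton exchanger, was higher at P3 at 3.57-fold and 3 were lower, with a median log2 ratio of 0.14. Of 16 brush border genes 0 passed 2-fold (median -0.37), and of 12 gluconeogenic and amino acid genes Pck1 and G6pc were higher (median 0.18), Pck1 at 2.89-fold in members and 9.32-fold in other nuclei. G6pc, with 24 UMIs in the P3 members, was 12.1-fold higher in members and 28.6-fold in other nuclei. Of 11 glycolysis genes 6 were lower (median -1.04), among them Gapdh at 0.460 in members and 0.455 in other nuclei. Of 12 fetal growth genes 5 were lower (median -0.57), with the growth factor Igf2 at 0.230 and the noncoding RNA H19 at 0.220, and at 0.189 and 0.237 in others. Transcription regulators held 1 higher of 15 (Pax2, 2.07-fold against 1.17-fold in others), 4 of 5 erythroid genes were lower, and 6 of 8 loop and distal genes were higher.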

How the data were processed

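Nuclei of pooled kidneys were sequenced with the Chromium Single Cell 3' kit on an Illumina sequencer, as 1 library per age. The authors deposited whole-number UMI counts of 32285 genes per barcode, made with Cell Ranger and mm10 per the submitters' notes. The notes give release 5.0.1, and the matrix headers give 7.0.0 for E18.5 and 5.0.1 for P3. Whether introns or strand were counted is not given in the sources used here, and either setting can change the counts of long and antisense genes. For P3 the labels name C57BL/6J, whereas the methods of the study call the background of either age mixed.

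Barcodes below 1000 UMIs (423 at E18.5, 1233 at P3), above the upper limit (2307 and 1573) or above the mitochondrial limit (226 and 395) were left out. Of the barcodes above the upper limit, 2305 and 1572 met the mitochondrial limit. Scrublet in scanpy 1.11.5, with an expected rate of 0.1, called 17.0% and 17.8% of the scored barcodes doublets, and none was removed. UMIs were summed per set of nuclei with pandas 2.3.3, numpy 2.4.6 and scipy 1.17.1 under Python 3.11.15, and figures were drawn with matplotlib 3.10.9. Steps that count genes were tested on simulated data. With 1 library per age no test, p-value or standard error was computed, and intervals are exact Poisson or binomial at 95%. Shares compared across depths were thinned to 1000 UMIs per nucleus.

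The members and gene lists were chosen with earlier results of these data known. Genes named were those of the fixed lists and, with 10 CPM added and the 14 genes of the rule left out, the 12 furthest above other nuclei, the 12 furthest above and below maturing nuclei (100 CPM or more in one of the sets) and the 12 furthest apart in each direction between the ages. Some genes that the rule names are not reported here. Gene locations were those of GENCODE M21, and promoters those of RefSeq GRCm38.p6. Alternatives changed UMI limits, the mitochondrial limit, each criterion of the rule, doublets, the CPM added, the minimum level and the scaling.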

Additional observations from a re-analysis of the deposited data

Results flagged for a closer look

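Barcodes above the upper UMI limit were left out of every comparison, and some of them carried the marker genes of the rule. At E18.5, 130 of 2305 such barcodes met it (5.64%), and at P3 46 of 1572 (2.93%), with a median of 7787 and 15324 UMIs. Deeper barcodes show more genes, so these shares cannot be set beside those of kept nuclei.

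Dmd stood at 1186 and 534 CPM in these barcodes and Slc34a1 at 197 and 202. Genes of other compartments were also present, with Slc12a1 at 459.8 and 732 CPM, the stromal gene Meis1 at 449.7 and 724 and Top2a at 393 and 276.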

How the results depend on the processing

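With 1 library per age no replicate could be left out. Depth and the level of tubule genes in endothelial nuclei limited the reading of genes of low level, and the part of free RNA was not tested. No paired analysis was possible because each age had 1 library and the labels carried no replicate numbers. The members were 1.91% and 1.28% of kept nuclei, and 639 and 331 genes were at least 2-fold from other nuclei, 442 and 1129 from maturing nuclei and 752 between the ages. Of the 13 alternatives, leaving out the nuclei with 2 or more loop and distal genes was chosen after seeing the data. It kept these 7 values, as totals, within 1.5 times, as did leaving out called doublets. Minima of 5 or 50 CPM and scaling by the median ratio kept the 5 gene counts within 1.5 times and were not run on the shares. Directions moved more: without called doublets the split against maturing nuclei was 300 higher and 361 lower at E18.5 and 883 higher and 727 lower at P3.

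With 6000 UMIs as the upper limit at both ages the P3 share was 1.02% and 704 genes were apart from other nuclei at P3 (266 higher and 438 lower), with 671 higher and 641 lower against maturing nuclei. With no upper limit the E18.5 share was 2.32%, and 205 and 166 genes were apart from other nuclei and 277 and 704 from maturing nuclei. The split was then 149 higher and 56 lower at E18.5 and 38 higher and 128 lower at P3 against other nuclei, and 32 higher and 245 lower at E18.5 and 194 higher and 510 lower at P3 against maturing nuclei. At least 5 UMIs of Lrp2 plus Cubn gave shares of 1.04% and 0.6997% and 771 genes apart from other nuclei at P3, and Slc12a3 between the ages went to a log2 ratio of -0.45 (-3.33 to 1.07). At least 3 of the 4 immature genes gave 1.12% and 0.6997% and 801 genes apart from other nuclei at P3, and Eya1 against maturing nuclei at P3 went to -0.074 (-0.71 to 0.48). No maturity gene gave 0.744% and 0.624%, 729 genes apart from maturing nuclei at E18.5 and 1291 between the ages (433 higher and 858 lower), and Mrc1 against maturing nuclei at P3 went to -0.94, with a counting interval that included 0. A mitochondrial limit of 0.2% gave an E18.5 share of 2.22%. With 1 CPM added, 614 genes were apart from other nuclei at P3, 716 and 1764 from maturing nuclei (320 higher and 396 lower, and 946 higher and 818 lower) and 1351 between the ages (407 higher and 944 lower). The cause of these shifts was not tested.

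Choosing members after thinning to 1000 UMIs, with maturing nuclei chosen in the same way, gave shares of members of 0.434% and 0.614%. It gave 1383 and 1816 genes apart from other nuclei, 303 from maturing nuclei at P3 and 1966 between the ages (610 higher and 1356 lower). By construction this choice could not see maturity genes lost in thinning: 53.1% and 77.2% of the nuclei chosen were maturing at full depth. Against maturing nuclei at P3 the log2 ratio went to the other side of 0 for the G2/M list (median -0.061), Amn (0.33), Cldn10 (0.068), Eya1 (-0.31), Frmpd4 (-0.064), Mrc1 (-1.04), Pax2 (-0.0041), Slc4a4 (0.17), Slc5a12 (0.69), Slc5a2 (0.25), Tenm2 (-0.71) and Top2a (-0.061). The counting interval lay off 0 for Slc4a4 (0.04 to 0.30) and Slc5a12 (0.56 to 0.82) and included 0 for the other 9 genes. The split was 341 higher and 305 lower at E18.5 and 132 higher and 171 lower at P3. Over all alternatives 15 of 1936 values of genes and lists changed direction, and 1315 of 1452 that were 2-fold apart stayed so.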
